A study of Homo sapiens with 4 samples.

Results

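The genes described here are protein-coding genes that were silent in control cells and on after GNE-987 treatment. They were chosen on their own values, as genes under 0.1 FPKM in both controls and at 5 FPKM or more in both GNE-987 libraries. FPKM are fragment counts adjusted for the length of the gene and for a scale of each library, which is given below. The rule chose 125 of the 19818 protein-coding genes outside the mitochondrial genome in a table of 58735 genes. Zinc finger genes named ZNF, HOX genes, histone genes and 4 single genes were left out beforehand, and 11 further genes that passed both limits were left out in this way. All 11 and the 125 together were 136 of 8081 genes under the control limit, or 1.68%. Under the mirror of the rule, with at least 5 FPKM in both control libraries and under 0.1 FPKM in both GNE-987 libraries, there were 0 genes. The mirror is not an even comparison, since 1 read was worth more FPKM in the GNE-987 libraries, as given below. The limit of 0.1 FPKM thus allowed fewer reads there.

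RNA-seq was performed on cells labelled NB4, which is a line of human promyelocytic leukemia, and gave 2 control libraries and 2 libraries of the treated group. Treatment was with the BET degrader GNE-987 for 24 h at 25 nM. It couples BET proteins, which are readers of acetylated chromatin, to a ubiquitin ligase, and they are then degraded. The comparison gives the expression profile of these cells after GNE-987 treatment. Nothing in the labels says that libraries of a group came from separate cultures, so p-values measure only the spread between these libraries.

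Reads on genes, worked out from the spacing of low FPKM values, numbered 19347286 and 19142227 in control and 12238111 and 12740693 after treatment. The scale behind the deposited FPKM, from the same spacing, was 23024012 and 22120718 reads in control and 8360488 and 8826052 after treatment. It did not follow the reads on genes, so treated values stand higher beside control than they would if scaled to total reads. For a gene of 3090 exon bases, the median of the switched-on genes, 1 read was worth 0.0141 and 0.0146 FPKM in control and 0.0387 and 0.0367 FPKM after treatment. Before treatment MPO, a granule gene of promyelocytes, was at 0.0246 and 0 FPKM, while the erythroid factor gene GATA1 was at 124 and 122 FPKM, which goes against the label. A run of 25 neighbouring protein-coding genes on chromosome 9 that includes CDKN2A was listed at 0 in all 4 libraries. In bulk RNA, more cells that use a gene and more RNA of it per cell cannot be told apart.

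A gene ends where its transcript is cut behind a polyadenylation signal, usually the hexamer AATAAA or ATTAAA, after which RNA polymerase II leaves the DNA. When cutting or release is incomplete, polymerase can run on into whatever lies downstream, and reads then fall on genes past the end, on either strand where reads are counted without regard to strand. Genes can also be switched on at their own promoters, which in many tissue-specific genes hold a TATA box and binding sites of inducible factors.

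The switched-on genes included 20 with a mean of 20 FPKM or more, 39 between 10 and 20 FPKM and 66 under 10 FPKM with GNE-987. The highest was ITGAM, which encodes the αM chain of the myeloid integrin Mac-1 (CD11b). ITGAM (chromosome 16 of GRCh38, 31259967 to 31332892, plus strand) was at 0 and 0.0318 FPKM in the controls and at 56.8 and 58.0 FPKM with GNE-987. GOLT1A, a Golgi transport gene, was listed at 0 in both controls and reached 53.7 and 52.8 FPKM. IDI2, a paralog of the isoprenoid enzyme gene IDI1, went from 0.0639 and 0.0665 FPKM to 52.4 and 51.5 FPKM. In all 3 genes the groups did not overlap, as the rule requires.

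Several members encode hormones and secreted signals, at levels from high to low within the list. KISS1, which encodes the reproductive neuropeptide kisspeptin, was at 0 in both controls and at 47.7 and 56.1 FPKM with GNE-987. SST, the gene of the hormone somatostatin, was likewise at 0 in both and reached 33.5 and 39.1 FPKM, on 170 and 209 reads. FGF18, a fibroblast growth factor, was at 0.0219 and 0 FPKM and then at 21.4 FPKM in both treated libraries. LEFTY2 and LEFTY1, inhibitors of Nodal signalling in the embryo that lie beside each other on chromosome 1, differed in level. LEFTY2 was at 0 in both controls and at 20.002 and 19.4 FPKM with GNE-987. LEFTY1 was at 0.0689 and 0 FPKM and reached 5.38 and 5.93 FPKM. GAST, the gene of the stomach hormone gastrin, rested on the fewest reads of all, with 22 and 28 reads or 5.60 and 6.75 FPKM in the treated libraries and 0 in the controls.

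Immune receptors and cytokines formed another part of the list. FCGR1A, the high-affinity receptor of IgG, was at 0.0290 and 0 FPKM in control and at 40.2 and 37.9 FPKM with GNE-987. Near-identical copies of this gene exist, and the counting could split their reads. CD79A, a signalling chain of the B-cell receptor, was at 0.0867 and 0 FPKM and reached 23.4 and 21.4 FPKM. CD247, the zeta chain of the T-cell receptor, was at 0.0108 and 0 FPKM and reached 7.68 and 8.03 FPKM. The myeloid growth factor gene CSF3 was lower, at 5.60 and 5.26 FPKM with GNE-987. The cytokine genes IL17F and IL17C reached 8.52 and 6.80 FPKM and 7.72 and 9.20 FPKM. PYDC1, a regulator of inflammasomes, was at 0 in both controls and at 23.5 and 25.7 FPKM, and PYCARD, the inflammasome adaptor ASC, was at 0 and then at 11.7 and 11.1 FPKM. PYDC1 lies inside the body of TRIM72, and their reads cannot be told apart without strand.

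Genes best known from brain, muscle, gonads or liver were present as well. TMEM119, a membrane protein of microglia and bone cells, was at 0 in both controls and at 34.4 and 33.0 FPKM with GNE-987. NSG2, a vesicle protein of neurons, was at 0 and 0.0229 FPKM and reached 25.6 and 24.9 FPKM. TRIM72, which helps to reseal the muscle cell membrane, was at 0.00511 and 0 FPKM and reached 21.1 and 23.1 FPKM. MSH4, a meiotic recombination gene, was at 0.0133 and 0.0138 FPKM and reached 16.3 and 15.3 FPKM. TG, the thyroglobulin gene of the thyroid, was at 0 in both controls and at 6.24 and 6.22 FPKM after treatment. The liver plasma proteins encoded by SERPINC1, CETP and HPX ended between 5.20 and 7.75 FPKM.

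The remaining genes among the highest 20 had less known or unrelated roles. SOWAHD, a single-exon ankyrin repeat gene, was at 0 in control and at 46.1 and 50.1 FPKM. WFIKKN2, a secreted protein with protease inhibitor domains, was at 0 in control and at 39.9 and 37.98 FPKM. ANKRD65 was at 0 in control and at 31.6 and 31.9 FPKM. C8orf89 behaved alike in both treated libraries, at 31.4 and 29.8 FPKM against 0 in both controls. ABCG4, a sterol transporter, was at 0.00693 and 0.00721 FPKM, which is 1 read in each, and reached 29.6 and 30.2 FPKM. LRRN4 was at 0.0323 and 0 FPKM and reached 26.7 and 27.7 FPKM. For LRCOL1 the treated libraries gave 26.1 and 24.9 FPKM, and for RAB6D, a Rab GTPase gene with close paralogs that could share its reads, 23.6 and 22.6 FPKM, with 0 in the controls for both genes.

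**Figure D1:**
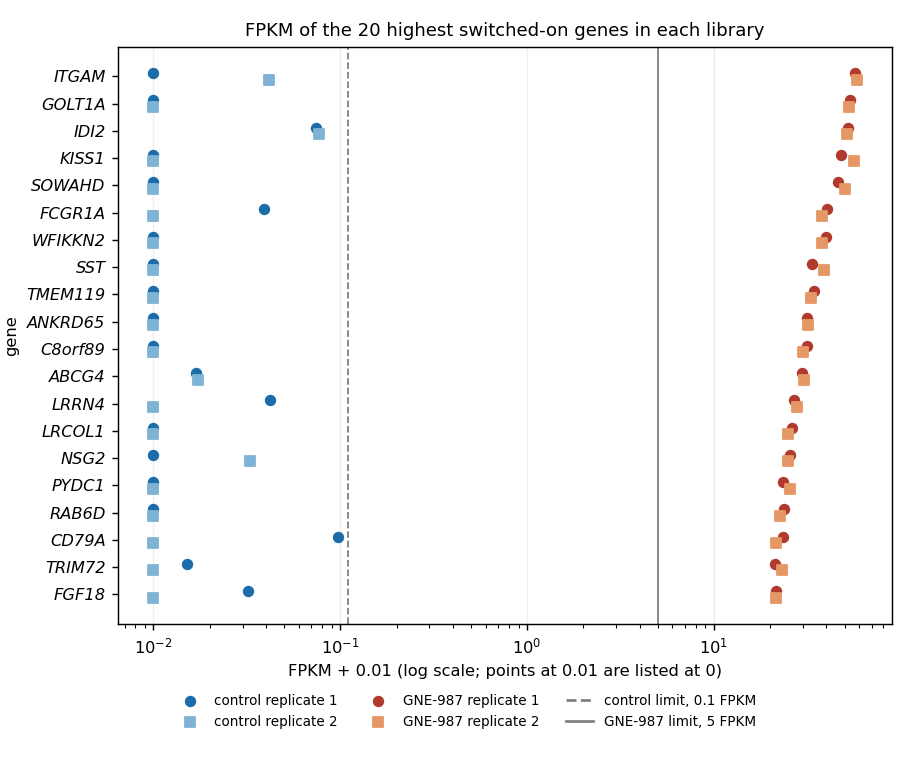
Each row shows FPKM + 0.01 on a log axis for 1 of the 20 switched-on genes with the highest mean with GNE-987, with 1 point per library and the 2 limits of the rule as vertical lines. The GNE-987 points lie between 21.1 and 58.0 FPKM and no control point is above 0.0867 FPKM.

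Of the 125 genes, 57 were listed at 0 in both control libraries, 29 in a single control library, and 39 were above 0 in both. No control value rested on more than 18 reads. With GNE-987 the genes held 22 to 2914 reads, with medians of 272 and 286 in the 2 libraries. The replicates were close, with a median ratio of the higher to the lower value of 1.07. The ratio was over 1.2 in 15 genes and largest for AVPR1B, a vasopressin receptor gene, at 9.42 and 5.43 FPKM. The lowest members were TNN at 5.02 and 5.32 FPKM, UPK2 at 5.08 and 5.84 FPKM and OOEP at 5.14 and 5.56 FPKM. Just outside the limit were ACSM1 at 4.999 and 5.25 FPKM, MPP4 at 5.51 and 4.92 FPKM and SPOCD1 at 4.83 and 5.47 FPKM. On the control side, TCF7L1 at 0.0984 and 0.0205 FPKM was the last inside. RRAD, a small GTPase gene, was left out by 0.102 FPKM in a single control library although it reached 93.2 and 99.8 FPKM with GNE-987.

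None of the 12 markers in each of 5 tissue lists (germ cell, neuron, epithelium, muscle and liver) was a member. Under the control limit were 10, 10, 9, 10 and 11 of them, and of all genes under it only 1.55% were members. At that share, lists of this size could hold none. In the same order, 1, 2, 0, 3 and 2 markers were called higher with GNE-987 and 0, 0, 1, 0 and 0 lower. Too low to be tested were 11, 10, 9, 8 and 10. ACTA1, a muscle actin gene, was left out by 0.174 FPKM in a single control library although it reached 43.1 and 45.6 FPKM. Among blood markers, the summed level of 9 granulocytic genes was 5.43 and 5.50 FPKM in control and 34.2 and 34.1 FPKM with GNE-987, and ELANE and CTSG were at or near 0 in all libraries. The 7 megakaryocytic genes summed to 1.47 FPKM in both control libraries and to 9.28 and 9.96 FPKM with GNE-987. The 10 erythroid genes summed to 335 and 347 FPKM and to 489 and 414 FPKM. The part of these markers in the switched-on genes was not tested.

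The members spanned 1 to 53 exon blocks. Their median exon length was 3090 bases in 7 exon blocks, against 3428.5 bases in 8 blocks for the other silent genes and 4446 bases in 9 blocks for all protein-coding genes. Only 8 had a single exon block, among them GPX1, the antioxidant enzyme glutathione peroxidase, at 0.0607 and 0.0316 FPKM in control and 9.28 and 9.35 FPKM with GNE-987. The members lay on 20 chromosomes in 113 loci, when genes within 100 kb of each other were counted as 1 locus. At 10 loci there were 2 or more members, which together held 22 of them. TTC36 and TMEM25 shared a locus, as did SST and RTP2, BNIP5 and ETV7, ODF4 and KRBA2, and TMEM106A and CCDC200. A total of 28 members overlapped another gene that was at 5 FPKM or more with GNE-987. Whether reads were counted by strand is not given in the sources used here, so reads of a member and of a gene overlapping it cannot be told apart.

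The rule did not use the position of the members, and the share with an active gene ending close by was higher than among the other silent genes. For each silent gene the nearest active gene upstream was found, that is, the nearest protein-coding gene with a mean of at least 10 FPKM in control whose body reaches past the 5′ end of the silent gene. There were 3535 such active genes. Only the nearest active gene on each side was looked at, so a further active gene behind it was not counted. An active gene on the same strand lay upstream within 10 kb of 21 members (16.8%), within 30 kb of 39 (31.2%) and within 100 kb of 57 (45.6%). Of the 7956 other silent genes, 1.89%, 4.26% and 9.45% had such a neighbour. On the opposite strand, where the 5′ end of the neighbour faces the gene, the shares were 0.8%, 0.8% and 8.0% of the members against 1.19%, 3.04% and 7.57% of the other silent genes. These shares are descriptions of position without a test, and members at a shared locus are not independent.

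On the downstream side the pattern was mirrored. An active gene on the opposite strand, whose 3′ end then faces the member, lay downstream within 10 kb of 19 members (15.2%), within 30 kb of 29 (23.2%) and within 100 kb of 40 (32%). Among the other silent genes the shares were 2.39%, 4.31% and 9.38%. An active gene on the same strand lay downstream within 30 kb of 7 members (5.6%) against 3.85% of the other silent genes. Counting both sides, the 3′ end of an active gene faced 62 members (49.6%) within 30 kb and 83 (66.4%) within 100 kb, compared with 8.21% and 17.3% of the other silent genes. The 5′ end of an active gene faced 8 members (6.4%) within 30 kb and 23 (18.4%) within 100 kb, compared with 6.56% and 15.3%. Read the other way, 7.05% of the silent genes with a same-strand active gene within 100 kb upstream were switched on, and 1.63% of those with an opposite-strand active gene there.

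**Figure D2:**
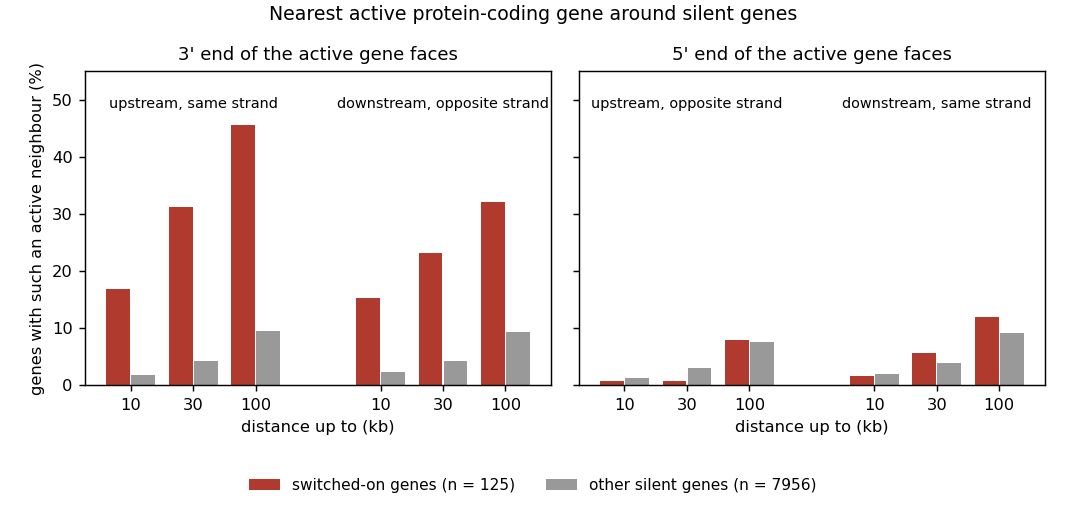
Bars show the percentage of switched-on genes (n = 125) and of other silent genes (n = 7956) that have an active protein-coding gene as nearest neighbour within 10, 30 or 100 kb, by side and strand. Where the 3′ end of the active gene faces the silent gene, the switched-on genes reach 45.6% upstream and 32% downstream within 100 kb, and the other silent genes 9.45% and 9.38%.

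Within 10 kb there were 21 pairs of a same-strand active gene and a member. Ribosomal and translation genes preceded several of them, with RPS19 before CD79A, RPL23 before C17orf98, RPL26 before KRBA2, EIF1AX before MAP7D2 and MRPL18 before PNLDC1. NPM1, the nucleolar protein nucleophosmin, preceded FGF18. Cytoskeletal and signalling genes were TPM3 before NUP210L, MAPRE1 before EFCAB8, LASP1 before LASP1NB, RHOA before GPX1 and HIPK1 before OLFML3. Further pairs were CCT3 before VHLL, DNM2 before C19orf38, RANGAP1 before CHADL, RABGGTB before MSH4 and NR6A1 before NR5A1. The same held for PRPF38B before FNDC7, ZC3H18 before IL17C, NEMP1 before MYO1A and TCF25 before TUBB3. The 21 members had a median of 9.23 FPKM with GNE-987 and a range of 5.57 to 22.4 FPKM.

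Between 10 and 30 kb there were 18 pairs. IDI1 preceded IDI2 and POLE preceded LRCOL1. RARS1 lay before FBLL1, MRPL17 before DCHS1, MLXIP before LRRC43, CELF1 before RAPSN, KMT2D before DDN and CREG1 before CD247. APLP2 lay before ST14, SCYL2 before SLC17A8, MCM3 before IL17F, CPNE7 before DPEP1 and RBM8A before ITGA10. EIF1 lay before GAST, PABPC1 before SNX31, PSMD3 before CSF3 and G3BP2 before CDKL2. Their median was 7.82 FPKM with GNE-987.

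Between 30 and 100 kb there were another 18 pairs, and their median was 14.1 FPKM. LUC7L3 lay before WFIKKN2, CORO1C before TMEM119, RPL7 before C8orf89, SDE2 before LEFTY2 and JRK before ARC, an immediate early gene of neurons. TXN lay before C9orf152, RCC1 before RAB42, RPS7 before ALLC, STING1 before SLC23A1, RPSA before MOBP and PFAS before ODF4. RBM8A lay before ANKRD35, SRSF6 before SGK2, TIMM8A before TAF7L, SUB1 before NPR3, PITPNB before MN1 and EEF1A1 before OOEP. The farthest of the 3 distance classes had the highest median, which is a description only because the rule used these values.

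Because members lie past these ends, the last 30 bases of the annotated transcript are shown for 4 of the neighbours, as read from GRCh38 on the strand of the gene. Capitals mark AATAAA or ATTAAA. NPM1 (chr5:171410871-171410900, plus strand) and RPS19 (chr19:41872896-41872925, plus strand) hold a hexamer, and IDI1 (chr10:1039419-1039448, minus strand) and LUC7L3 (chr17:50756190-50756219, plus strand) hold neither at the end of the canonical transcript in GENCODE release 44.
NPM1: attttAATAAAgtagcacggtttctattga
RPS19: aaaaaagaatcAATAAAaatgttaaaagca
IDI1: aaaatatatacttctttgattctggtcaaa
LUC7L3: ataaaatttaaaaagaagaatgggaaaaaa
Searched on the sense strand only, either hexamer was in the last 30 bases of 44 of the 55 neighbours (80%) and of 2555 of all 3535 active protein-coding genes (72.3%). AATAAA alone was in 67.3% of the neighbours and 58.6% of the active genes. The absence of these letters says only that they are not in this window.

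The neighbours themselves were chosen on position and control level, so their own change with GNE-987 was not used by the rule and was tested with limma over all genes. Of the 55 neighbours of the 57 members, 19 were higher with GNE-987 (p under 0.05 and fold change over 2), 9 were lower and 27 were called neither, of which 22 had p under 0.05 and missed only the fold limit. The background over active protein-coding genes was 15.4% higher and 33.0% lower, and over all 16668 tested genes 33.6% higher and 24.9% lower. The neighbours had a median log2 fold change of 0.37 and the active genes of -0.44, a gap of 0.80 that was 0.60 after quantile normalization. Scaling to GAPDH or to total reads multiplies a whole library and so leaves this gap as it is. The direction of the neighbours rests on the scaling, since scaling to GAPDH moved the median of all genes by -1.77 and left 0 neighbours higher and 36 lower. GAPDH itself was listed at 398 and 432 FPKM in control and at 1501 and 1499 FPKM with GNE-987. Scaling to it takes GAPDH as unchanged, which was not tested. The 19 to 9 split became 10 to 19 when libraries were scaled to their total reads, and quantile normalization left 7 neighbours higher.

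RPS19, a ribosomal protein gene, was at 177 and 191 FPKM in control and at 1076 and 1025 FPKM with GNE-987 (log2 fold change 2.52, SE 0.06, limma adjusted p 0.00013), and the log2 fold change was 0.66 under scaling to GAPDH and 0.70 under quantile normalization, below the fold limit. CD79A begins 4.35 kb past its end and ended at 2.13% of its level. NPM1 was at 368 and 389 FPKM and at 669 and 651 FPKM with GNE-987, a log2 fold change of 0.80 that did not pass the fold threshold and turned to -1.05 when libraries were scaled to GAPDH. FGF18, 7.84 kb past NPM1, ended at 3.24% of it. RPL7 was at 231 and 247 FPKM and then at 952 and 925 FPKM (log2 fold change 1.97, limma adjusted p 0.00015), a call that was lost with a log2 fold change of 0.12 under scaling to GAPDH and 0.07 under quantile normalization. C8orf89, 30.7 kb past RPL7, ended at 3.26% of it. Past these abundant neighbours the members were a small share of the neighbour's level.

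The neighbours of moderate level were different. LUC7L3, a splicing factor gene, stayed between 18.4 and 21.2 FPKM in all 4 libraries (log2 fold change 0.06, limma adjusted p 0.61). WFIKKN2, 78.4 kb past it, went from 0 to a level of 190% of LUC7L3. CORO1C, an actin-binding coronin, was at 34.3 and 34.6 FPKM and at 21.97 and 22.7 FPKM with GNE-987, under the fold threshold (log2 fold change -0.62). It passed that threshold downward under scaling to GAPDH (-2.47) and to total reads (-1.39). TMEM119, 46.8 kb past it, ended at 151% of CORO1C. POLE, a DNA polymerase gene, was at 15.2 and 16.9 FPKM and then at 21.4 and 22.5 FPKM, and LRCOL1, 13.2 kb past it, ended at 116% of POLE. IDI1 rose from 17.0 and 16.6 FPKM to 99.5 and 95.5 FPKM (log2 fold change 2.53, limma adjusted p 0.0001, but 0.68 on the log2 scale under scaling to GAPDH), and IDI2, 13.3 kb past IDI1, ended at 53.3% of it. IDI2 also overlaps GTPBP4 on the opposite strand.

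Over all 57 pairs the member stood at a median of 32.9% of its neighbour's FPKM with GNE-987. The median was 22.02% within 10 kb, 34.6% between 10 and 30 kb and 54.7% between 30 and 100 kb. Past neighbours that were higher with GNE-987 it was 5.94% (n = 20 members), past those called neither 48.7% (n = 28) and past those that were lower 187% (n = 9). A neighbour that is high enters this ratio as its divisor, so the order of the 3 medians is a description only. A total of 11 members stood above their neighbour. These were WFIKKN2, TMEM119, LRCOL1, MSH4, DCHS1, ARC, SLC23A1, ODF4, DDN, SLC17A8 and MN1, the last 6 of which lay past neighbours that were lower. ARC was the extreme case, at 0.0436 and 0.0453 FPKM in control and 15.4 and 18.9 FPKM with GNE-987, while JRK, 43.0 kb upstream, fell from 10.6 and 11.5 FPKM to 1.00 and 0.989 FPKM (log2 fold change -3.34, limma adjusted p 0.00016). At the other end OOEP stood at 0.0921% of EEF1A1, a translation factor gene at 5882 and 5729 FPKM with GNE-987.

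**Figure D3:**
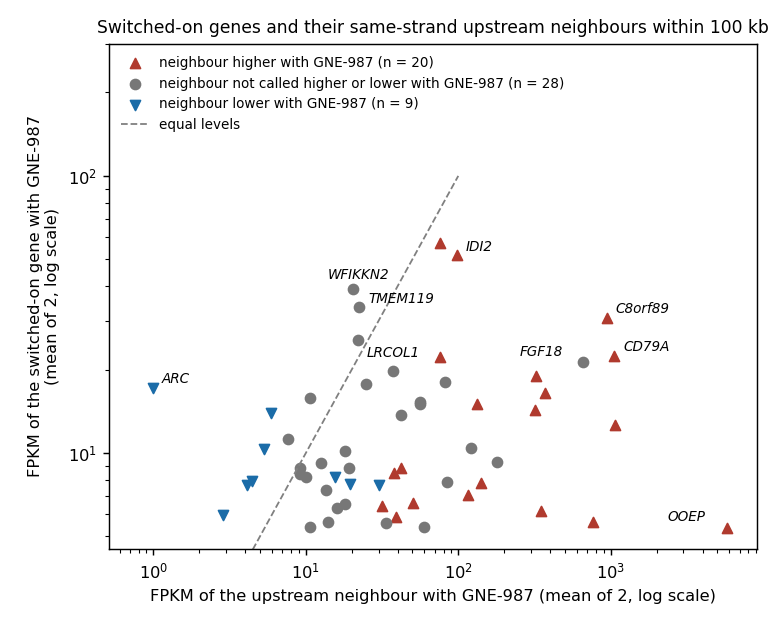
Each point is 1 of the 57 switched-on genes with a same-strand active gene upstream within 100 kb, with the mean FPKM of the gene (vertical axis) against that of the neighbour (horizontal axis) with GNE-987, both on log scales. The 11 points above the dashed line of equal levels include ARC, WFIKKN2, TMEM119 and LRCOL1, and OOEP lies farthest below it.

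Genes between a member and its neighbour were not chosen by the rule either. There were 62 such genes of any type that were not members, and 44 had enough signal to be tested. Of these, 37 were called higher with GNE-987, 2 lower and 5 neither. Over all 16668 tested genes 33.6% were higher and 24.9% lower, but this background is not matched for control level. In 26 of the 44 the control mean was under 0.5 FPKM, so they passed the filter only through the treated libraries and could hardly be called lower. Of the 18 whose control mean reached 0.5 FPKM, 13 were called higher, 2 lower and 3 neither. The share over all genes of that control level was not worked out, so these counts are descriptions only. PRXL2AP2, a processed pseudogene between RPL7 and C8orf89, was at 0 in both controls and at 66.4 and 65.9 FPKM with GNE-987. P2RX2, an ATP-gated channel gene on the opposite strand between POLE and LRCOL1, was at 1.12 and 0.985 FPKM and rose to 37.6 and 35.1 FPKM (log2 fold change 4.98, limma adjusted p 0.00011). TRNAU1AP, between RCC1 and RAB42, rose from 3.20 and 3.51 FPKM to 55.3 and 60.0 FPKM. The 2 lower genes were SLC25A35, between PFAS and ODF4, and ENSG00000277332, between JRK and ARC, both past neighbours that were lower themselves.

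For a further 26 members the nearest active gene upstream was not a same-strand gene within 100 kb. Their nearest active gene downstream was on the opposite strand within 100 kb, the 2 genes pointing at each other. LRRN4 ends 0.49 kb from the end of CRLS1, KLHL35 0.11 kb from that of RPS3, PPL 0.11 kb from that of UBN1 and PLEK2 0.47 kb from that of EIF2S1. The nearest upstream active genes of these 4 were TMX4, SERPINH1, USP7 and ACTN1, all over 100 kb away. In the next sentences the distant upstream active gene and the facing downstream gene stand in brackets, in that order. Among these members were RAB6D (MZT2A, PLEKHB2), BNIP5 (KCTD20, BRPF3), COL23A1 (HNRNPH1, HNRNPAB), METTL21C (ARGLU1, TPP2), SLC10A1 (PNMA1, SRSF5) and PTPRE (BCCIP, MKI67). There were also ACY3 (NDUFS8, NDUFV1), CDC42EP5 (PPP1R12C, LENG8), AOAH (MRPL32, ANLN), ART1 (NAP1L4, NUP98), TRIM74 (NSUN5, POM121) and TCF7L1 (TMSB10, TGOLN2). Others were NIM1K (RPL37, HMGCS1), UPK2 (DDX6, RPS25), ARMH2 (H1-2, GMNN) and FCGR1A (CHD1L, H2BC21). PYDC1 and PYCARD had VPS35, and SERPINC1 had CACYBP, as the distant upstream gene. SLC25A18 had no active gene upstream on its chromosome and ended 1.14 kb from ATP6V1E1. SOWAHD, with SEPTIN6 upstream and RPL39 downstream, and CATSPERD, with LONP1 0.07 kb upstream and DUS3L downstream, also had the 5′ end of an active gene close by. Among the upstream genes of the highest members in these classes, SEPTIN6 was at 12.9 FPKM in both controls and at 27.3 and 27.03 FPKM with GNE-987, and MZT2A was at 17.3 and 16.4 FPKM and then at 52.3 and 56.4 FPKM. Their log2 fold changes of 1.07 and 1.68 are smaller than the shift of all genes under scaling to GAPDH. TMX4 fell from 11.1 and 11.9 FPKM to 4.9997 and 4.99 FPKM (log2 fold change -1.19, limma adjusted p 0.00047). CHD1L was at 21.99 and 22.11 FPKM and then at 22.43 and 20.002 FPKM, and VPS35 at 11.01 and 12.5 FPKM and then at 10.999 and 11.9 FPKM. Neither passed a threshold, with log2 fold changes of -0.06 and -0.04.

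An overlap with an active gene, and no facing 3′ end of the nearest active gene on the other side within 100 kb, was found for 6 members. They were DNALI1 over GNL2, BEST1 over FTH1, MROH2A over HJURP, HEATR9 over TAF15, SH3D19 over RPS3A and SRGAP3 over THUMPD3, with MEAF6, FADS3, PTMA, MYO19, PLRG1 and again THUMPD3 as the nearest upstream active genes. SRGAP3 was at 0 in both controls and at 10.3 FPKM in both treated libraries. BEST1, the bestrophin channel gene of the retina, overlaps the end of the ferritin gene FTH1 and was at 0.0827 and 0.0506 FPKM, then at 8.92 and 9.39 FPKM.

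Only the 5′ end of an active gene was near 10 members. The upstream neighbours included ATAD3B for ANKRD65, DPAGT1 for ABCG4, BRCA1 for TMEM106A, UBE2K for SMIM14, KCTD20 for ETV7 and MRPS14 for TNN, all on the opposite strand and within 100 kb. ETV4 for CCDC200 and CD3D for TMEM25 and TTC36 were farther away. DPAGT1, 40.7 kb from ABCG4, was at 15.5 and 14.4 FPKM in control and at 10.2 FPKM in both treated libraries. ATAD3B, upstream of ANKRD65, was at 22.8 and 23.7 FPKM and then at 31.7 and 31.95 FPKM, and neither passed the fold threshold.

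The last 26 members had no active gene end within 100 kb and overlapped no active gene (20.8%), compared with 68.7% of the other silent genes. MUC20, RTP2 and MCMDC2 among them overlapped genes outside the active set that were at 5 FPKM or more with GNE-987. These were MUC20-OT1, ENSG00000228804 and SNHG6, and their reads cannot be told apart without strand. The 26 members had a median of 8.81 FPKM with GNE-987, and the members that a 3′ end faced alone had 9.75 FPKM. The rule cut all these values at 5 FPKM, so nothing is read from how near the medians are. For 9 of the 26 a gene that was below 10 FPKM in control but at 10 FPKM or more with GNE-987 lay upstream on the same strand within 100 kb. These upstream genes were picked on their treated level, so their values carry no test. GOLT1A begins 4.87 kb past PLEKHA6, which was at 0.00526 and 0 FPKM in control and at 116 and 119 FPKM with GNE-987, and KISS1 begins 1.67 kb past GOLT1A. The nearest gene active in control, PPP1R15B, lies 182 kb upstream of GOLT1A and 200 kb upstream of KISS1 and was at 23.0 and 24.4 FPKM, then at 37.1 and 38.1 FPKM.

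SST and RTP2 both follow BCL6, a transcriptional repressor gene, which was at 0.475 and 0.472 FPKM in control and at 595 and 608 FPKM with GNE-987. RTP2 begins 18.8 kb and SST 51.0 kb past BCL6. RTP2 was at 0 in both controls and at 7.11 and 6.82 FPKM, well below the 33.5 and 39.1 FPKM of SST, which is the farther gene. The nearest gene active in control for both was CCDC50, over 100 kb away on the opposite strand, which fell from 10.9 and 10.8 FPKM to 2.56 and 2.83 FPKM. The others of the 9 were NSG2 past CPEB4, MPC1L past ATP6AP2, PLA2G12B past P4HA1, C11orf91 past CD59 and CETP past HERPUD1. CPEB4, a translation regulator, was at 5.07 and 5.51 FPKM in control and at 56.1 and 54.2 FPKM with GNE-987. HERPUD1, an endoplasmic reticulum stress gene, was at 5.63 and 5.10 FPKM and then at 15.1 and 16.1 FPKM. In control, ATP6V0E1, BCOR, ECD, LMO2 and NUP93 were the nearest active genes upstream of NSG2, MPC1L, PLA2G12B, C11orf91 and CETP, each over 100 kb away, and ATP6V0E1 was at 29.6 and 25.4 FPKM, then at 15.1 and 15.6 FPKM.

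Because SST was high with no control-active gene near, its promoter is shown, as the 250 bases before the annotated start in RefSeq (GRCh38.p14, chr3:187670395-187670644, minus strand). Capitals mark TATAAA and TGACGTCA, the cAMP response element that is well known from this promoter. The marked TATAAA lies in the part of the window farthest from the start and is not shown to be a TATA box.
SST: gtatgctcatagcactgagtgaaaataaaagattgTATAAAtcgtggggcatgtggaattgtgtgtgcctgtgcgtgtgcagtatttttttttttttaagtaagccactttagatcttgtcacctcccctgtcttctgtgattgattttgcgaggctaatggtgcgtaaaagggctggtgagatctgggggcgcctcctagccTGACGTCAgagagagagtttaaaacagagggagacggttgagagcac
On either strand, TATAAA is in 11.1% and TGACGTCA in 1.77% of the 27305 RefSeq promoter windows of this length. A promoter was at hand for 84 of the 125 members (67.2%), too few to compare promoter content over the set, and TGACGTCA was in the window of SST alone among these 84. A match is a description of letters and not of factor binding.

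For 17 members neither kind of upstream gene was near. They were GCM1, a placental transcription factor gene, KCNE4, LGR5, ARMCX1, TEX29, FAM171B, DRC1, MUC20, FRZB, AVPR1B, ADRA2A, XIRP1, TG, MCMDC2, FAM24A, COL26A1 and HPX. Their nearest active genes upstream were, in the same order, ELOVL5, ACSL3, CCT2, HNRNPH2, ANKRD10, ZC3H15, HADHB, LSG1, NUP35, RASSF5, SMC3, SLC25A38, CYRIB, RRS1, MCMBP, FIS1 and MRPL17, between 108 kb and 3018 kb away. GCM1 was at 0.0157 and 0 FPKM in control and at 19.3 and 17.989 FPKM with GNE-987. KCNE4, a potassium channel subunit gene, was at 0 in both and reached 16.7 and 17.6 FPKM. LGR5, a stem cell receptor for R-spondins, was at 0 in both and reached 17.2 and 16.7 FPKM, and its nearest upstream active gene CCT2 lies 1838 kb away. ADRA2A, the single-exon gene of an adrenergic receptor, was at 0 in both and reached 7.57 and 7.2004 FPKM.

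Genes for cleavage, polyadenylation and termination were examined because of the positions above. None of the 44 listed genes was under the control limit. Of these, 5 passed the thresholds upward, namely PCF11, PPP1R10, SCAF4, RBBP6 and INTS5, 16 passed downward and 23 were called neither, a split that became 0 upward and 39 downward when libraries were scaled to GAPDH and 2 and 29 when they were scaled to total reads. The background of active protein-coding genes was 15.4% higher and 33.0% lower. PCF11, a termination factor that binds the polymerase tail, rose from 7.84 and 8.75 FPKM to 45.1 and 44.5 FPKM (log2 fold change 2.42, limma adjusted p 0.00018). Among those that fell, CSTF2, which binds RNA behind the cut site, went from 24.5 and 23.8 FPKM to 5.69 and 5.49 FPKM (log2 fold change -2.09, limma adjusted p 0.00015). XRN2, the exonuclease that chases the polymerase after the cut, fell from 29.0 and 31.1 FPKM to 10.8 and 11.9 FPKM (log2 fold change -1.40, limma adjusted p 0.00043). The median log2 fold change of the list was -0.65 against -0.44 for active protein-coding genes. The part of these genes in the switching-on of the members was not tested.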

How the data were processed

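RNA was extracted with Trizol and libraries were made with the Illumina TruSeq RNA kit. The authors mapped filtered reads (HISAT2 2.0.5 and hg38 per the submitters' processing notes), used DESeq2 for differential expression and deposited an FPKM table, the only values used here. The counting program, its strand setting and the annotation are not given in the sources used here. The labels gave the groups, and the study's text the dose and time. Of the identifiers, 99.1% were in GENCODE release 44, which gave names and positions. Reads were recovered from FPKM steps (tolerance 0.01), and 53.4% of 32627 genes came out whole at its exon lengths, among them 27 members, so other reads are approximate.

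Values as log2(FPKM + 0.1), which understates changes of low genes, entered limma 3.58.1 (R 4.3.3, intensity trend) for the 16668 genes whose mean reached 0.5 FPKM. A call needed an unadjusted p under 0.05 and a fold change over 2 or below 0.5. Adjusted p-values are Benjamini-Hochberg over all tested genes. The fit was tested on simulated data. The members and lists were chosen with earlier results of these data known. By the naming rule, members and their nearest upstream active genes were named, with library values for the highest 20 and their neighbours, except for a few genes that are not reported here but stay in all counts. Lower members described by role were picked after their values were seen.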

Additional observations from a re-analysis of the deposited data

How the results depend on the processing

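The number of switched-on genes was 204 with a GNE-987 limit of 3 FPKM and 54 with 10 FPKM. It was 50 after scaling to GAPDH, 70 after quantile normalization and 83 after scaling to total reads, an alternative added after the data were seen, and all of these were among the 125. Median-ratio scaling changed nothing because the deposited values already have equal factors. An active same-strand gene lay upstream within 30 kb of 47.2% of the members with an active limit of 1 FPKM and of 16.8% with 20 FPKM, and of 9.77% and 2.06% of the other silent genes. With active genes set on GNE-987 values, an opposite-strand gene lay there for 4.8% of the members and 2.61% of the other silent genes. The main setting gave 0.8% and 3.04%, so the order of these shares depends on how active genes are defined. Downstream the shares were 5.6% for same-strand and 23.2% for opposite-strand genes. Without a filter 8757 genes were higher. Scaling to GAPDH gave 2261 higher and 10359 lower genes over all, 0 and 36 among neighbours, 5 lower genes between members and neighbours, and 0 and 39 in the termination list. Scaling to total reads gave 6822 lower genes over all, 10 higher and 19 lower neighbours, and 2 and 29 in the termination list. The split of calls was 57.5% higher as deposited, and 17.9%, 42.9% and 35.7% after scaling to GAPDH, by quantiles and to total reads. Quantile normalization gave 7 higher neighbours. With a pseudocount of 1 there was 1 lower gene between members and neighbours, and leaving out 1 library in turn gave 1 to 2, with 1 without control replicate 1. Log2 fold changes reversed for NPM1 (-1.05 with GAPDH, -1.06 with quantiles), LUC7L3 and POLE (-1.79 and -1.40 with GAPDH, and below the call limit -0.71 and -0.32 with total reads), and LUC7L3 was at -0.11 with quantiles. The calls of RPL7 (0.12 and 0.07) and RPS19 (0.66 and 0.70) were lost with GAPDH and quantiles, and that of IDI1 (0.68) with GAPDH. CORO1C, not called as deposited, passed the fold limit downward with GAPDH (-2.47) and total reads (-1.39). The cause of these shifts was not tested. The replicate numbers did not pair the libraries (correlation 0.00537 between same-numbered deviations), and with a replicate block 5667 genes were higher and 4186 lower. The remaining 110 values of counts and shares were within 1.5 times or their interval. The GNE-987 libraries are the shallower pair, so low values there are less precise.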
